A study of Mus musculus with 2 samples.

Results

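Genes for protein folding, protein translocation and the unfolded protein response of the endoplasmic reticulum were followed in the liver of normal and type 2 diabetic mice. The group was defined by name as 40 genes, of which 28 are among the 8551 genes that the deposited table lists. The normal library came from wild type C57BL/6 males and the diabetic library from db/db males, in which leptin cannot signal through its receptor and which overeat, grow obese and turn diabetic, and whose background is also labelled C57BL/6. All mice were 9 weeks old, and livers were taken about 3 h after the lights came on. The mice came from SLAC and from Nanjing University's Model Animal Research Center, and ate chow freely. The study's methods do not say which genotype came from which supplier. There is 1 library per group, and the study's methods do not say whether the RNA of several mice was pooled, so no difference below has a replicate check.

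Secreted and membrane proteins enter the endoplasmic reticulum through the Sec61 channel, are folded there by chaperones, glycan-binding lectins and disulfide isomerases, and are passed to the cytosol for degradation when folding fails. When unfolded proteins build up, the membrane sensors IRE1 (gene Ern1), PERK (Eif2ak3) and ATF6 start the unfolded protein response, in which XBP1, ATF4 and cleaved ATF6 switch on genes for chaperones, degradation and, under lasting stress, cell death. Hepatocytes secrete most plasma proteins and carry a large endoplasmic reticulum, and this response has been studied widely in obesity and insulin resistance.

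Gene expression was measured with digital gene expression tags, short reads that start at a DpnII site of the cDNA. The level of a gene is given in TPM, which here means tags per 1000000 clean tags of the library. Tags are not divided by transcript length because each transcript is counted at its site, so levels are compared between libraries and not between genes. From the equal steps of the deposited values, 10278531 clean tags were recovered for the normal and 13508232 for the diabetic library. The 28 listed members held 21450 tags of the normal and 36216 of the diabetic library, or 0.209% and 0.268% of the clean tags. A gene with no tag could still be present at up to 3 tags, or 0.292 TPM in the normal and 0.222 TPM in the diabetic library.

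Predicted tags show where a member would be counted if its last DpnII site gave the sequenced tags. Each was read from the transcripts of the GENCODE M21 annotation as the last DpnII site, GATC, with the 16 bases after it, written 5′ to 3′ with the site in capitals. The length of the sequenced tag is not given in the sources used here, and no sequenced tag was matched to a predicted one. All 28 listed members have a last tag found in no other gene. The tags of 8 members described below whose libraries differed by fold and in the exact test are shown, followed by those of 2 members that are not in the table.
P4hb: GATCtatgcatcctgtcaag
Herpud1: GATCgtctggctccggctcc
Ddit3: GATCgaccgcatggtcagcc
Sec63: GATCtgcagaatgtctgtca
Creld2: GATCattgaaggtcaccagg
Xbp1: GATCttcttgctagtgtagc
Pdia4: GATCttctgtttaagaatct
Sec61a1: GATCccttgcacacagccca
Sdf2l1: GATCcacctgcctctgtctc
Sec61g: GATCcatatacccattaata

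The predicted Xbp1 tag lies 85 bases from the 3′ end of the transcript, outside the short intron that IRE1 removes. Such a tag does not separate spliced from unspliced Xbp1. The predicted Creld2 tag lies 22 bases from the 3′ end and the predicted Sec63 tag 1447 bases from it. Not analysed here are the other 12 members, namely the chaperone genes Dnajb11, Dnajc3 and Sdf2l1, the disulfide isomerase Pdia3, the oxidase Ero1l, the secreted factor Manf, the sensors Ern1 and Eif2ak3, the degradation genes Derl1 and Derl2, and the translocation genes Sec61g and Ssr2. Of these 12, the last tag of Sdf2l1 also occurs in 7 other genes and that of Sec61g in 3, and the Ssr2 transcript has 0 DpnII sites. The remaining 9 have a last tag of their own.

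Many unfolded protein response genes carry the endoplasmic reticulum stress element (ERSE), to which ATF6 and XBP1 bind together with NF-Y. Its letters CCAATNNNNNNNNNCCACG were searched on both strands in the 250 bases before the start site of each RefSeq gene of GRCm38.p6. The element was found in 35 of 27025 genes (0.130%) and in 9 of the 34 members with a promoter in that table (26.5%). Among the listed genes with a promoter, 12 of 6623 held it (0.181%), and 8 of these 12 were members: Hspa5, Hsp90b1, Calr, Canx, Pdia6, Ero1lb, Creld2 and Syvn1. The 6 of them with the highest mean TPM are shown 5′ to 3′ on the strand of the gene, with the CCAAT and CCACG boxes, or their complement ATTGG and CGTGG, in capitals.
Hspa5 (chr2:34772005-34772063, plus strand): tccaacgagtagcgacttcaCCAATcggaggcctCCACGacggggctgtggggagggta
Calr (chr8:84847055-84847113, minus strand): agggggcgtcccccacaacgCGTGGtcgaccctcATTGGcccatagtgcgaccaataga
Pdia6 (chr12:17266471-17266529, plus strand): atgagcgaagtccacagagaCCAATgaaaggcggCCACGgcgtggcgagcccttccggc
Creld2 (chr15:88819500-88819558, plus strand): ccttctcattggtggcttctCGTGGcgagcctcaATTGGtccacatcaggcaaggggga
Ero1lb (chr13:12565662-12565720, plus strand): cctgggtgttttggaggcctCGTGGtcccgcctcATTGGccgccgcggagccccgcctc
Syvn1 (chr19:6046512-6046570, plus strand): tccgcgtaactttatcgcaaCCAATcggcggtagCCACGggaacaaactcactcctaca

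The match begins 65 bases before the start site in Hspa5, 162 in Calr, 98 in Pdia6, 126 in Creld2, 201 in Ero1lb and 44 in Syvn1. Hsp90b1 holds 2 matches. The shorter second form of the element, ERSE-II, was found in 10 of 27025 genes (0.0370%) and in 1 member, Herpud1, as ATTGGGCCACG beginning 52 bases before its start. Of the 34 members with a promoter, only Herpud1 held the ATF4 response letters TGATGNAA (2.94%), beside 3.91% of the 27025 genes. Only Hspa5 held the XBP1 core TGACGTG (2.94%), beside 1.85%. A match describes the letters of the promoter and is not evidence that a factor bound there in these livers.

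Differences are given as the log2 ratio of diabetic over normal TPM. Each has a 95% Clopper-Pearson interval computed from the recovered tags, which covers counting error only. A gene was counted as higher or lower when its TPM differed at least 1.5-fold. A stricter call also required a false discovery rate (FDR) under 0.001 in an exact binomial test of the tags (two-sided, Benjamini-Hochberg adjustment over all 8551 genes), a test that compares these 2 libraries rather than the conditions. The median log2 ratio of all listed genes was 0.25 and not 0. Scaling by trimmed mean of M values (TMM) lowers each log2 ratio by 0.25 and sets that median to 0.00, and 3 other scalings lower it by 0.26 to 0.31. Values scaled by TMM are therefore given beside the deposited ones where they matter.

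The 28 listed members did not move in 1 direction. In the diabetic library 7 members (25%) were at least 1.5-fold higher, beside 34.4% of all listed genes, and 7 (25%) were at least 1.5-fold lower, beside 15.3%. With the FDR also required, 6 members (21.4%) were higher, beside 22.9% of all listed genes, and 5 (17.9%) were lower, beside 8.19%. After TMM scaling, 5 members were at least 1.5-fold higher and 9 at least 1.5-fold lower, beside 24.0% and 23.6% of all listed genes. With TMM scaling and the FDR together, 4 members were higher and 5 lower, beside 14.9% and 13.4%. The median log2 ratio of the members was 0.15 as deposited and -0.10 after TMM scaling. Their interquartile range of 1.07 was close to the 1.10 of all listed genes.

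**Figure D1:**
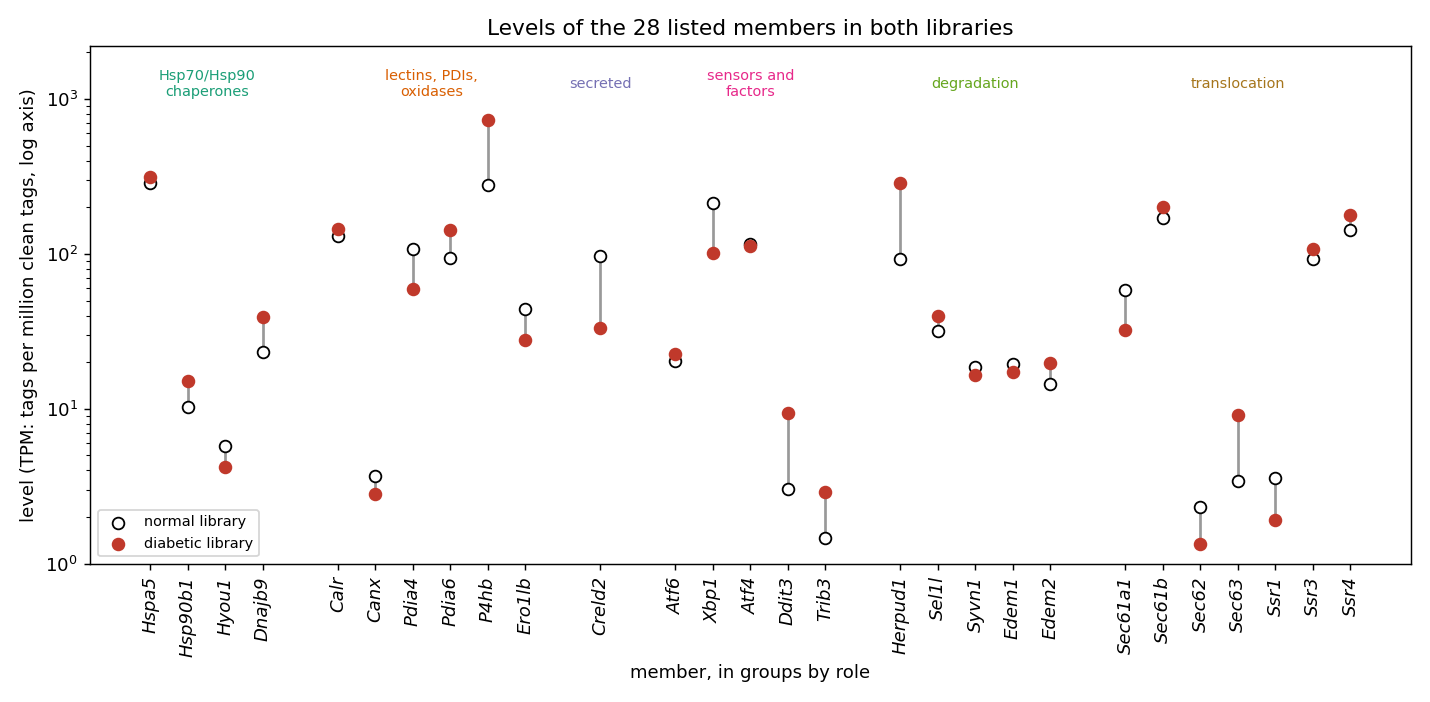
Level of each of the 28 listed members in TPM on a log axis, grouped by role, with an open circle for the normal library, a filled circle for the diabetic library and a line joining the pair (1 library each). P4hb and Herpud1 show a long line upward in the diabetic library, and Creld2 and Xbp1 a long line downward, while the circles of Hspa5, Calr and Atf4 nearly coincide.

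The chaperones of the Hsp70 and Hsp90 systems bind unfolded chains inside the endoplasmic reticulum. Hspa5 encodes BiP, the main Hsp70 chaperone of the compartment and a common readout of the unfolded protein response. It stood at 287.69 TPM in the normal and 314.99 TPM in the diabetic library, with a log2 ratio of 0.13 (95% interval, 0.06 to 0.20). After TMM scaling the ratio was -0.12, so its direction depends on the scaling, and its size stayed far below 1.5-fold either way. Hsp90b1, the Hsp90 chaperone GRP94, was counted at 10.31 and 15.18 TPM, a log2 ratio of 0.56 (0.21 to 0.91) just under the 1.5-fold line. Hyou1, a large Hsp70 relative that acts as an exchange factor for BiP, was counted at 5.74 and 4.22 TPM, from 59 and 57 tags (-0.44, -0.995 to 0.106).

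Dnajb9 encodes ERdj4, a co-chaperone that holds IRE1 inactive and hands misfolded proteins to degradation. It was the 1 chaperone gene that met both criteria, at 23.25 TPM in the normal and 39.38 TPM in the diabetic library (log2 ratio 0.76, 0.54 to 0.99). After TMM scaling its log2 ratio was 0.51, under 1.5-fold. The summed level of the 4 chaperone genes was 327 TPM in normal and 374 TPM in diabetic liver, most of it Hspa5. Their median log2 ratio was 0.34, beside 0.25 for all listed genes. After TMM scaling that median was 0.09, beside 0.00.

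The lectin chaperones and the enzymes that form and rearrange disulfide bonds had 2 of 6 listed genes higher and 2 lower by both criteria as deposited. Of all listed genes 22.9% were higher and 8.19% lower by these criteria. After TMM scaling 1 of the 6 was higher and 2 lower, beside 14.9% and 13.4% of all listed genes. P4hb encodes protein disulfide isomerase itself and also serves as a subunit of prolyl 4-hydroxylase and of the microsomal triglyceride transfer protein, which loads lipid onto apolipoprotein B. Its level was 277.96 TPM in normal liver against 735.55 TPM in diabetic liver, 2.65-fold higher, from 2857 and 9936 tags. The log2 ratio was 1.40 (1.34 to 1.46), higher than in 90.3% of listed genes, and 1.15 after TMM scaling. P4hb alone added more TPM in the diabetic library than any other member.

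Pdia4, encoding the isomerase ERp72, went the other way, from 107.02 TPM in normal to 59.30 TPM in diabetic liver (log2 ratio -0.85, -0.98 to -0.72). Pdia6, encoding the isomerase P5, was 93.98 and 143.02 TPM, a log2 ratio of 0.61 (0.49 to 0.72) that met both criteria as deposited and was 0.35 after TMM scaling. The counting intervals of the 3 isomerase genes did not overlap, but they leave out variation between mice. Ero1lb, the oxidase that recharges protein disulfide isomerase, was lower in the diabetic library, at 43.88 and 27.98 TPM (-0.65, -0.85 to -0.45).

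Of the lectin chaperones, which hold glycoproteins during folding, Calr was counted at 131.15 and 145.69 TPM (0.15, 0.05 to 0.25) and at -0.10 after TMM scaling. Canx, its membrane-bound relative, was counted at 3.70 and 2.81 TPM from 38 tags in each library (-0.40, -1.08 to 0.29), and a 1.5-fold difference was not detectable at that depth. The summed level of the 6 genes was 658 TPM in normal and 1114 TPM in diabetic liver, and P4hb made up most of the latter.

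Creld2, a small protein secreted under endoplasmic reticulum stress, had the lowest log2 ratio of all listed members. In normal liver it was counted at 96.90 TPM and in diabetic liver at 33.16 TPM, 2.92-fold lower, from 996 and 448 tags. The log2 ratio was -1.55 (-1.71 to -1.38), at the 2.60 percentile of all listed genes, and -1.80 after TMM scaling.

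Among the sensors and transcription factors, Xbp1 was lower and Ddit3 higher in the diabetic library. Xbp1, the factor that IRE1 activates by splicing, stood at 214.14 TPM in the normal and 101.12 TPM in the diabetic library, 2.12-fold lower, from 2201 and 1366 tags (log2 ratio -1.08, -1.18 to -0.98). After TMM scaling it was -1.33. Ddit3 encodes CHOP, the factor linked to cell death under lasting stress, and was counted at 3.02 and 9.33 TPM, 3.09-fold higher, from 31 and 126 tags (1.63, 1.05 to 2.25). Both met both criteria under the deposited and the TMM scaling.

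Atf4, the factor translated when PERK is active, was counted at 115.78 and 112.08 TPM, a log2 ratio of -0.05 (-0.16 to 0.06). After TMM scaling the ratio was -0.30. The Atf4 transcript level therefore differed by less than 1.5-fold either way, while control of ATF4 by translation is not seen in tags. Atf6, the membrane-bound sensor, stood at 20.33 and 22.58 TPM (0.15, -0.11 to 0.41). Trib3, a pseudokinase induced by ATF4 and CHOP, was counted at 1.46 and 2.89 TPM from 15 and 39 tags (0.99, 0.09 to 1.95), and did not meet the FDR (0.0489 in the exact binomial test). Ddit3 and Trib3 rest on the lowest counts of these 5 genes, as their wide intervals show.

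**Figure D2:**
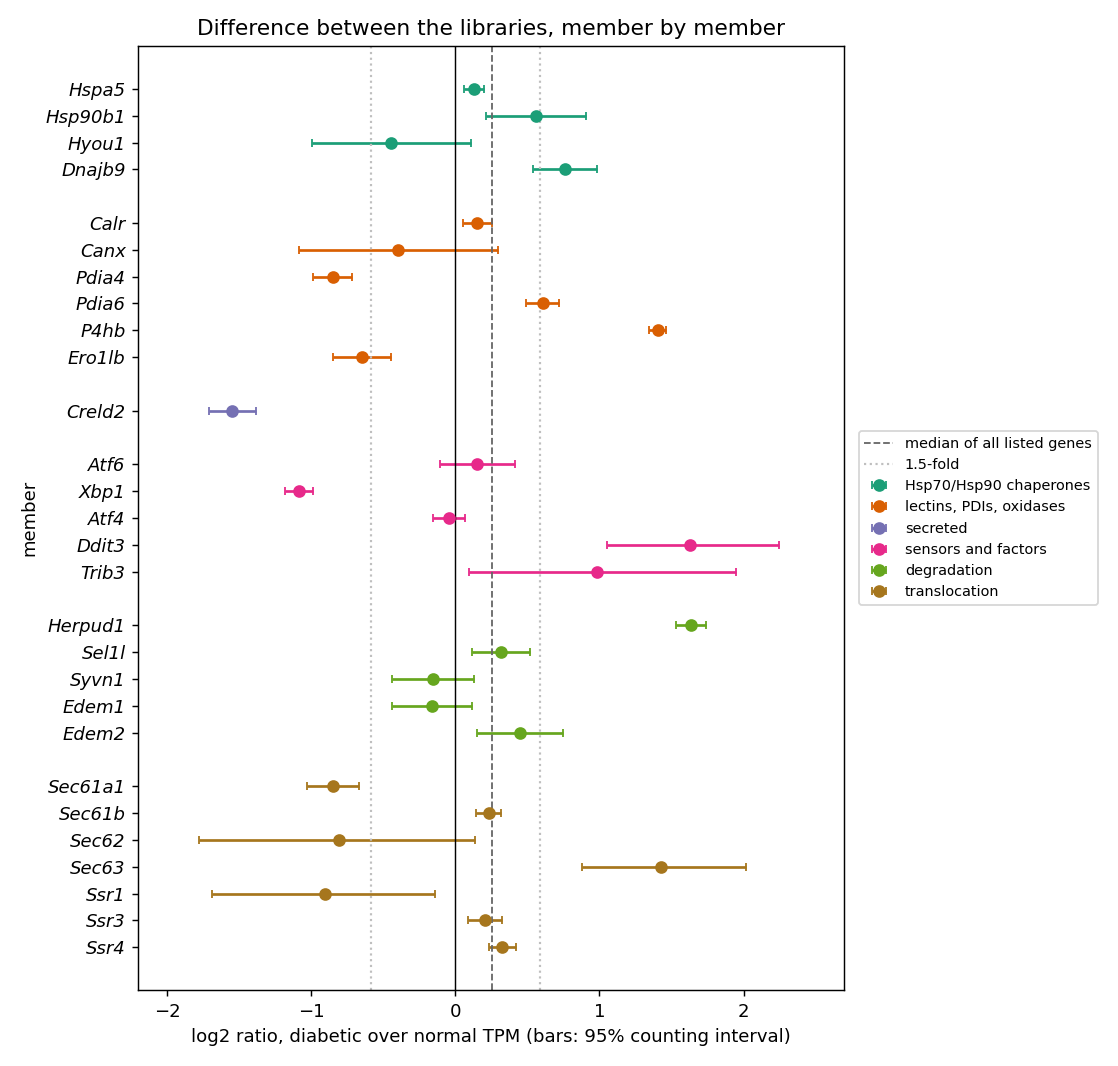
Log2 ratio of diabetic over normal TPM for each of the 28 listed members, with bars for the 95% counting interval, colours for role, a dashed line at the median of all 8551 listed genes (0.25) and dotted lines at 1.5-fold. Herpud1 (1.63), Ddit3 (1.63), Sec63 (1.43) and P4hb (1.40) lie farthest to the right, Creld2 (-1.55) and Xbp1 (-1.08) farthest to the left, and the longest bars belong to members with few tags such as Sec62 and Trib3.

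The degradation genes return misfolded proteins to the cytosol and mark them with ubiquitin. Herpud1, a stress-induced membrane protein that assembles the ubiquitin ligase complex, had the highest log2 ratio of all listed members. Normal liver had 92.43 TPM and diabetic liver 286.86 TPM, 3.10-fold higher, from 950 and 3875 tags (1.63, 1.53 to 1.74). After TMM scaling its log2 ratio was 1.38. The other 4 genes of the same machinery did not reach 1.5-fold in either direction.

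Sel1l, the adaptor of the ligase, was counted at 31.91 and 39.68 TPM (0.31, 0.11 to 0.52). Syvn1, which encodes the ligase HRD1 itself, was counted at 18.49 and 16.58 TPM (-0.16, -0.44 to 0.13). Edem1 and Edem2 encode proteins that pick out glycoproteins for degradation. Edem1 stood at 19.46 and 17.40 TPM (-0.16, -0.44 to 0.12), and Edem2 at 14.50 and 19.77 TPM (0.45, 0.15 to 0.75).

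Of the 7 listed translocation genes, 1 was higher and 1 lower by both criteria, as deposited and after TMM scaling. Of all listed genes 22.9% were higher and 8.19% lower by these criteria, or 14.9% and 13.4% after TMM scaling. Sec61a1, the pore-forming subunit of the Sec61 channel, was lower in the diabetic library, at 58.08 and 32.20 TPM (-0.85, -1.03 to -0.67). Sec61b, a small subunit of the same channel, was counted at 169.97 and 199.58 TPM (0.23, 0.14 to 0.32) and at -0.02 after TMM scaling. The counting intervals of these 2 subunits did not overlap, but they leave out variation between mice.

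Sec63, a membrane co-chaperone that couples BiP to the channel, was higher in the diabetic library, at 3.41 and 9.18 TPM from 35 and 124 tags (1.43, 0.88 to 2.02). Its partner Sec62 was counted at 2.33 and 1.33 TPM from 24 and 18 tags (-0.81, -1.78 to 0.13), and did not meet the FDR (0.134 in the exact binomial test). Subunits of the translocon-associated complex, which helps some signal sequences to insert, were mixed. Ssr1 was counted at 3.60 and 1.92 TPM from 37 and 26 tags (-0.91, -1.69 to -0.14; exact binomial FDR 0.0292). Ssr3 was counted at 93.30 and 107.79 TPM (0.21, 0.09 to 0.33), and Ssr4 at 143.11 and 179.45 TPM (0.33, 0.23 to 0.42). After TMM scaling Ssr3 was at -0.04 and Ssr4 at 0.07.

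Direction depends on the scaling for 5 members, Hspa5, Calr, Atf6, Sec61b and Ssr3, which were above 0 as deposited and below 0 under each of the 4 scalings. None of the 5 differed 1.5-fold. Hyou1 and Canx did not pass 1.5-fold as deposited but were at least 1.5-fold lower under each of the 4 scalings. Both rest on few tags, and neither met the FDR after TMM scaling (exact binomial FDR 0.0207 for Hyou1 and 0.0987 for Canx). Dnajb9 and Pdia6 passed 1.5-fold higher only as deposited. The lower calls of Creld2, Xbp1, Pdia4, Sec61a1 and Ero1lb and the higher calls of Herpud1, Ddit3, P4hb and Sec63 met both criteria under both scalings.

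**Figure D3:**
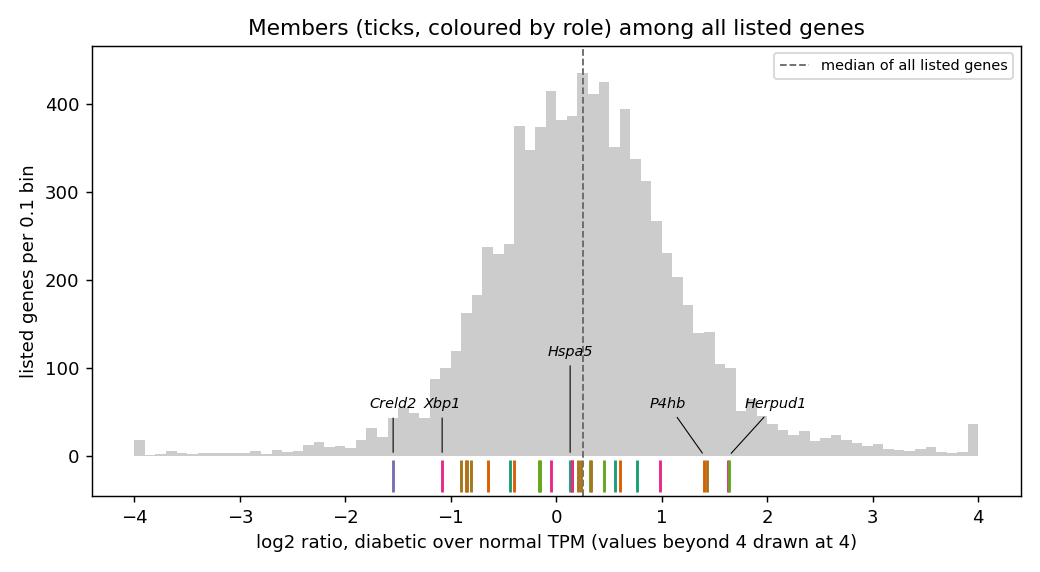
Number of listed genes per 0.1 bin of the log2 ratio of diabetic over normal TPM (grey; values beyond 4 drawn at 4), with the 28 listed members as ticks coloured by role and a dashed line at the median of all listed genes. The ticks run from -1.55 (Creld2) to 1.63 (Herpud1) and lie on both sides of the dashed line at 0.25.

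The members that hold an ERSE did not share a direction. Of the 8 in the table, Pdia6 met both criteria as higher (0.61) and Creld2 (-1.55) and Ero1lb (-0.65) as lower, as deposited. Of all listed genes 22.9% were higher and 8.19% lower by both criteria. The other 5 lay between -0.40 and 0.56 on the log2 scale, with Hspa5 at 0.13, Calr at 0.15, Hsp90b1 at 0.56, Syvn1 at -0.16 and Canx at -0.40. After TMM scaling Creld2 (-1.80) and Ero1lb (-0.90) still met both criteria, beside 13.4% of all listed genes as lower. Pdia6 (0.35) fell under 1.5-fold and was no longer called higher. Hsp90b1 was then at 0.31, and Hspa5, Calr, Canx and Syvn1 were below 0. The 4 listed genes with an ERSE that are no members were Alg12 (0.07), Hnrnpa3 (0.38), Pan2 (18 and 67 tags) and Derl3 (-3.73). Derl3, a channel protein of the degradation pathway related to Derl1 and Derl2, was counted at 5.84 TPM in normal and 0.44 TPM in diabetic liver, from 60 and 6 tags (-5.22 to -2.51). It is named here after its values were seen.

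Other genes of the same compartment were taken as 8 lists by function. Calls in these lists required both criteria, as did 22.9% of all listed genes in the higher and 8.19% in the lower direction, or 14.9% and 13.4% after TMM scaling. The oligosaccharyltransferase, which attaches glycans to entering proteins, had 2 of 9 listed genes higher and 1 lower and a median of 0.31. Dad1 was counted at 97.68 and 194.10 TPM (0.99) and Tusc3 at 3.02 and 14.73 TPM (2.29), and Ddost at 40.28 and 25.17 TPM (-0.68). For the signal peptidase and the signal recognition particle, which cleave and deliver signal sequences, 4 of 12 were higher and 0 lower: Srpr (0.84), Srp14 (1.24), Spcs3 (0.77) and Sec11c (0.84). The median of these 12 was 0.42, and after TMM scaling 2 were higher and 1 lower. Of the other translocation and insertion genes, 0 of 9 were higher and 1 was lower, Bat3 (-0.85), a chaperone of tail-anchored proteins, with a median of 0.11.

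The list of other folding and glycoprotein quality control genes had 4 of 33 higher and 4 lower, and its median log2 ratio was -0.13, against 0.25 for all listed genes. Erp29, a folding factor of secretory proteins, was counted at 366.39 and 155.02 TPM (-1.24), and Prdx4, a peroxiredoxin that also drives disulfide formation, at 156.83 and 81.43 TPM (-0.95). Mcfd2 (0.91) and Lman1 (0.63), the partners of the cargo receptor for coagulation factors, were both higher. After TMM scaling 2 genes of this list met both criteria as higher and 10 as lower.

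Of the other degradation genes, 8 of 25 were higher and 2 lower, with a median of 0.41. Ngly1, which strips glycans from exported chains, was at 1.08, Bcap31, an export and sorting factor, at 0.80 and the ubiquitin ligase Rnf5 at 0.67, while Aup1, a ligase cofactor also found on lipid droplets, was at -0.67. After TMM scaling 5 of the 25 were higher and 3 lower.

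Stress sensing and recovery genes had 4 of 17 higher and 0 lower (2 lower by fold alone), with a median of 0.37. Tmbim6, the Bax inhibitor that dampens IRE1, was counted at 666.92 TPM in normal and 1377.68 TPM in diabetic liver (1.05), and Creb3l3, a liver-rich relative of ATF6, at 39.60 and 67.29 TPM (0.76). Tmem33 (1.39) and Bcap29 (1.11) were the other 2. After TMM scaling 2 of the 17 were higher and 3 lower.

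Among genes known to be induced through ATF4, 5 of 15 were higher and 0 lower (4 lower by fold alone), and after TMM scaling 4 were higher and 1 lower. Cth, an enzyme of cysteine synthesis, was counted at 99.82 and 613.11 TPM (2.62), Gdf15, a stress hormone, at 6.52 and 20.21 TPM (1.63), Ddit4, an inhibitor of mTORC1, at 0.88 and 4.74 TPM from 9 and 64 tags (2.43), and the factor Cebpb at 0.65. The median of these 15 genes was 0.05, and the ATF4 targets Chac1 (2.92 and 1.92 TPM) and Atf3 (1.36 and 0.67 TPM), named after their values were seen, did not meet both criteria.

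The coat that carries cargo out of the endoplasmic reticulum had 8 of 19 genes higher (42.1%) and 1 lower, with a median of 0.31. Sar1b, the GTPase needed for export of lipoproteins, was counted at 179.21 and 310.48 TPM (0.79), and the coat subunit Sec24a at 60.42 and 115.86 TPM (0.94). Tmed5 was at 0.84 and Tmed9 at -0.94, both cargo receptors of one family. After TMM scaling 5 of the 19 were higher and 2 lower.

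**Figure D4:**
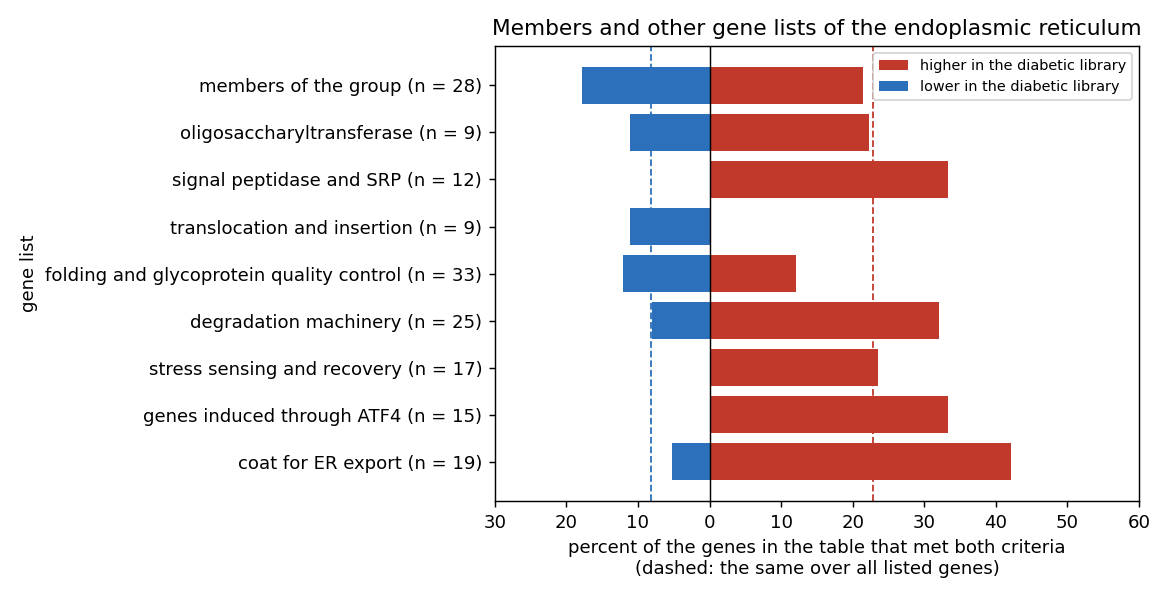
Percent of the listed genes of each list that met both criteria, to the right (red) when higher and to the left (blue) when lower in the diabetic library, with dashed lines at 22.9% and 8.19%, the shares over all 8551 listed genes. The members show 21.4% higher and 17.9% lower, and the export coat 42.1% higher and 5.26% lower.

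Bulk liver RNA does not tell fewer cells of a type from less RNA per cell. Hepatocyte markers summed to 12381 TPM in normal and 12378 TPM in diabetic liver over 6 of 8 genes, a sum carried by Alb and Trf. Of the 6, Cps1 was 2.43-fold higher (130.27 and 316.70 TPM) and Hnf4a 2.10-fold lower (96.80 and 46.19 TPM) by both criteria. Kupffer cell markers, 7 of 10 listed, summed to 262 and 131 TPM, with 4 lower and 1 higher by both criteria. Plasma and B cells and the exocrine pancreas express much Xbp1, Creld2, Pdia4 and Derl3, so their markers were read beside those genes. Of the plasma and B cell markers, Cd79b was counted with 48 and 33 tags, and of 9 pancreas markers 1 was listed, Cela2a with 21 and 3 tags. Endothelial markers summed to 101 and 90.6 TPM over 6 of 6 genes. By both criteria Kdr was higher (11.97 and 22.13 TPM) and Clec4g lower (47.67 and 30.65 TPM). Stellate cell markers summed to 49.7 and 64.2 TPM over 4 of 5. Among them Col1a1 was higher (3.11 and 9.4 TPM) and Reln lower (12.84 and 7.11 TPM) by both criteria. Cholangiocyte markers summed to 61.5 and 107 TPM over 3 of 5, most of it Spp1 (57.21 and 103.12 TPM). The part of these cells in the members' differences was not tested.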

How the data were processed

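Liver poly(A) RNA of 1 normal and 1 diabetic sample was profiled as DpnII tags on an Illumina sequencer. The authors removed adaptors, kept clean tags, compared them with RefSeq and deposited each gene's value as TPM, which is an RPM value: tags per 1000000 clean tags, rounded, with 0.01 for no tag. The submitters' processing notes name mm9, and the aligner is not given in the sources used here. Genes with a mean under 1 TPM are not in the table. The number of other columns of values was 0. Samples were grouped by their labels. The members and lists were chosen with earlier results of these data known. The value of 1 marker gene is not reported here.

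Whole tags were recovered from the steps of the deposited values (8513 of 8513 values in the normal and 8536 of 8537 in the diabetic library, within 0.0051 TPM). The fold was taken from the deposited TPM. A gene at 3 tags or fewer in 1 library was set to 3 tags for its ratio. The two-sided exact binomial test, with Benjamini-Hochberg adjustment, was the alternative call, and it was tested on simulated tags with counting error only. The simulation held no variation between mice and no shift between libraries, so it does not show how the test behaves with either. TMM trimmed 30% of log ratios and 5% of abundances at each end. Every listed member is named, and of each other list at most 4 genes that met both criteria, by mean TPM. Promoters printed are those with an ERSE, at most 6 by mean TPM. Tags come from GENCODE M21 transcripts with a RefSeq match, and promoters from RefSeq GRCm38.p6, neither of which is the build of the files, so no coordinates were carried over. A promoter was found for 34 of 40 members. Alternatives were the call with FDR, a fold of 2, 4 scalings, added pseudocounts (0.1 or 1 TPM) and leaving out genes with a mean under 5 TPM. Tables were handled with pandas 2.3.3 and numpy 2.4.6 in Python 3.11.15, tests run with scipy 1.17.1 and plots drawn with matplotlib 3.10.9.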

Additional observations from a re-analysis of the deposited data

How the results depend on the processing

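No paired analysis was possible because there is 1 library per group, and for the same reason no library could be left out. The median log2 ratio of the members, 0.15 as deposited, was -0.11 after scaling to the sum of the listed genes, -0.10 after TMM, -0.15 after median-ratio scaling and -0.12 after upper-quartile scaling. With a fold threshold of 2 in place of 1.5, 4 members were higher and 2 lower, in place of 7 and 7. With the FDR required and TMM scaling together, an alternative chosen after seeing the data, 4 were higher and 5 lower. With pseudocounts of 0.1 and 1 TPM each of the 28 ratios stayed within its counting interval. Scaling moved many ratios outside it: 16 of the 28 with TMM and 17 with the sum of the listed genes. Upper-quartile scaling moved 17 and median-ratio scaling 20. The minimum mean of 5 TPM left 23 members, whose ratios it does not alter. Of the 28 members 6 had under 50 tags in a library, and their intervals are wide. The tags carry no molecular identifiers, and variation between mice enters none of these values.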

Other observations

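Uggt1, the sensor that returns incompletely folded glycoproteins to the lectin chaperones, was counted at 13.43 TPM in normal and 4.74 TPM in diabetic liver, 2.83-fold lower, from 138 and 64 tags (95% interval of the log2 ratio, -1.95 to -1.06). Vldlr, a lipoprotein receptor known as an ATF4 target, had 0 tags in normal and 34 in diabetic liver, which is at least 8.63-fold higher when the normal library is set to 3 tags. Pan2, a deadenylase subunit whose promoter holds an ERSE, was counted at 1.75 and 4.96 TPM, from 18 and 67 tags. All 3 genes were chosen after their values were seen.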
